A study of Bos taurus with 8 samples.

Results

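The genes described here are 10 components of fibroblast growth factor (FGF) signalling, namely the receptors *FGFR1*, *FGFR2* and *FGFR3*, the ETS-family transcription factors *ETV1*, *ETV4* and *ETV5*, and the feedback inhibitors *SPRY1*, *SPRY2*, *SPRY4* and *DUSP6*. They were picked by name with earlier results of these data known. All 10 were found among the 24596 genes of the count table, each as a single Ensembl gene. Chondrocytes came from the superficial zone (SZCs) and the deep zone (DZCs) of wild-type articular cartilage, cut from knees of calves aged 1 to 2 weeks. Cells of both zones were cultured for 3 days in DMEM/F12 with FBS before RNA-Seq, so every level below is that of cells in serum-containing culture and not of intact tissue. Each zone had 2 libraries, which the study calls biological duplicates. Zone differences were tested with the exact test of edgeR on all 12857 genes that had enough counts, with Benjamini–Hochberg adjustment over all of them (FDR), and levels are given as CPM, counts relative to a library size scaled by the trimmed mean of *M* values (TMM), with SE for the standard error of a log2 fold change.

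FGFs are secreted ligands that bind receptor tyrosine kinases at the cell surface together with heparan sulfate. The activated receptor passes its signal through an adaptor and the RAS, RAF and MEK proteins to the kinase ERK, and ERK signalling induces *ETV4* and *ETV5*, the Sprouty genes and the phosphatase gene *DUSP6*, which are widely used as readouts of the pathway. Sprouty proteins dampen signalling upstream of ERK, whereas the DUSP6 protein removes the activating phosphates from ERK itself. In cartilage, FGFR3 is best known as a brake on growth plate chondrocytes. These genes also respond to other receptors that use ERK, such as EGFR, which the study placed upstream of lubricin.

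Library totals lay between 19918970 and 21890549 counts, and the floor used here, 3 counts in a library, equals between 0.129 and 0.187 CPM. All 6 superficial zone markers (*PRG4*, *THBS4*, *VIT*, *WIF1*, *EPHA3* and *CREB5*) were called higher in SZCs, though *CREB5* was picked by the study from these libraries and the list is no independent check. *PRG4*, the lubricin gene, was at 2024 and 3166 CPM in SZCs against 15.3 and 61.5 CPM in DZCs, and the chondrocyte genes *COL2A1*, *ACAN* and *SOX9* were present in every library. The chondrocyte list lay toward DZCs, with 0 of 8 log2 fold changes positive, a median of -1.11 and 5 of 8 genes higher in both DZC libraries, against 20.5% of all tested genes. *MATN3*, a matrix protein gene, was called (log2 fold change -2.05, FDR 0.00212), and *COL2A1* was 3.75-fold higher in DZCs without passing (FDR 0.0658). DZC replicate 1 stood apart, since *COL2A1* took 24.5% of its counts against 6.31% to 12.9% elsewhere. It held the lowest of the 4 levels for 36.5% of all tested genes, and for 7 of the 10 genes described here (70.0%). DZC replicate 2 differed from it in hypertrophic and bone markers, whose summed level over 10 genes was 274 CPM against 35.2 CPM in DZC replicate 1 and 110 to 113 CPM in SZCs. *SPP1* made up most of that sum, at 201 CPM in DZC replicate 2, 18.9 CPM in DZC replicate 1 and 102 to 108 CPM in SZCs. The bone and hypertrophy genes *MMP13*, *ALPL*, *IBSP*, *COL10A1* and *SP7* were counted 468, 445, 268, 221 and 140 times in DZC replicate 2 and at most 23 times in any other library. *IHH*, a signal of prehypertrophic chondrocytes and the only called gene of the list (log2 fold change -4.12, FDR 0.016), ran the other way, at 12.1 CPM in DZC replicate 1 and 2.15 CPM in DZC replicate 2. *PHOSPHO1* was also higher in DZC replicate 1, at 4.04 CPM against 2.20 CPM in DZC replicate 2, with 2.32 and 5.77 CPM in SZCs. *BGLAP* and *DMP1* had at most 6 counts in any library. Of 9 markers of fibroblasts and synovium, *DCN* and *VCAM1* were called higher in SZCs (2.23% of all tested genes), 6 had both SZC libraries above both DZC libraries (21.0% of all tested genes) and 3 overlapped between zones. Their summed level was 14370 and 18620 CPM in SZCs against 2970 and 11050 CPM in DZCs. Macrophage and leukocyte markers summed to 18.22 and 30.2 CPM in SZCs against 6.967 and 14.03 CPM in DZCs. All 5 tested genes of that list had positive log2 fold changes, though 4 overlapped between zones and 0 were called. The endothelial sum overlapped, at 5.361 and 11.29 CPM in SZCs and 3.857 and 7.978 CPM in DZCs, also with 0 called. Both sums were above the levels of *SPRY1*, *SPRY4* and *DUSP6* in every library, which were at most 4.393 CPM. The part of these marker lists in the results below was not tested. Because these are bulk samples, a smaller number of cells expressing a gene cannot be told apart from less RNA per cell.

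All 10 genes passed the filter on low counts. *ETV5* was the only one to pass an FDR of 0.05 in the exact test, higher in SZCs, so that 1 of 10 was called against 2.93% of all tested genes in either direction and 2.23% in the direction of SZCs. The study had already listed *ETV5* as higher in SZCs from these libraries, and the 10 genes were chosen with earlier results known. The shares of all tested genes given beside them are thus no independent check. Among the 10, 0 were called higher in DZCs, against 0.700% of all tested genes, and 0 had an unadjusted p below 0.05 in that direction. The quasi-likelihood test of edgeR called 0 of the 10, but it called 0 of all 12857 genes as well. With replicate number as a block, that test called 0 of the 10 against 2.70% of all genes. DESeq2 called 2 of the 10 against 3.09% of all genes. Without DZC replicate 2, 21.5% of all genes passed in the exact test, so a member that passed there is to be read against that share. An unadjusted p below 0.05 was seen for 4 of the 10, namely *FGFR2*, *ETV1*, *ETV5* and *SPRY1*, against 9.09% of all tested genes. In 7 of the 10, both SZC libraries lay above both DZC libraries, a separation seen in that direction for 21.0% of all tested genes, and in the opposite direction for 20.5% of all tested genes and 0 of the 10. The median log2 fold change of SZCs over DZCs was 1.24 for the 10 genes and -0.04 for all tested genes. Members of a pathway respond to the same signals and are not independent of each other.

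**Figure D1:**
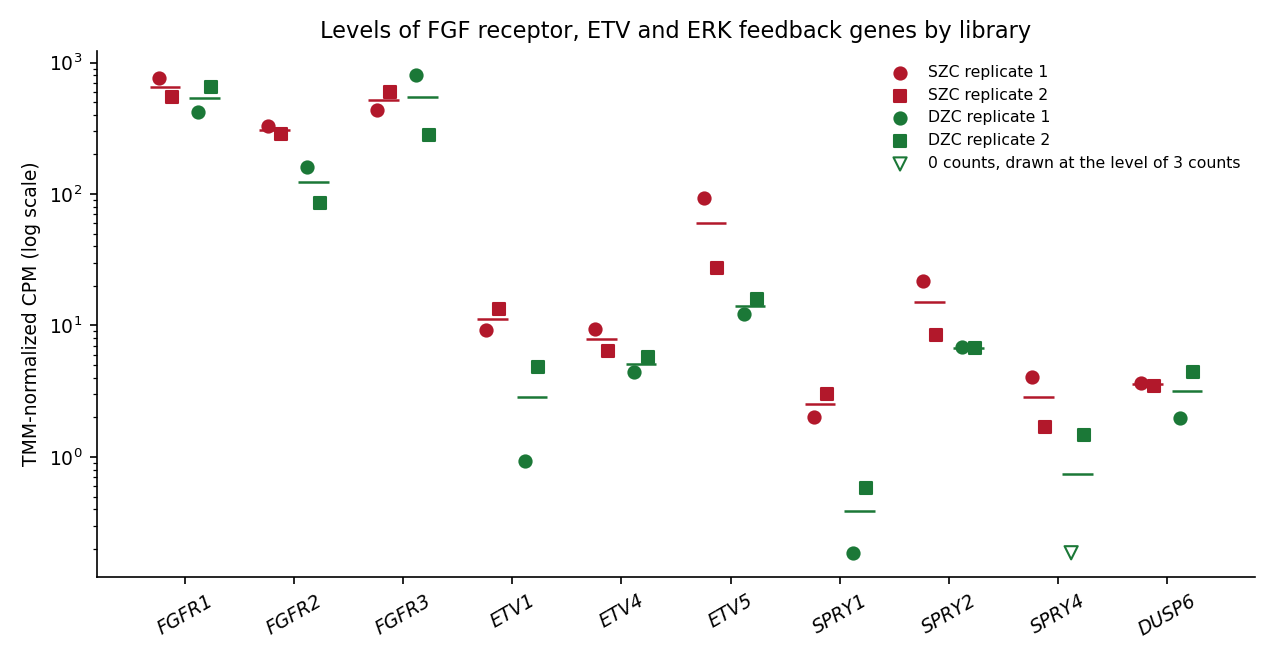
Levels of the 10 genes in TMM-normalized CPM on a log axis, with SZC libraries in red, DZC libraries in green, replicate 1 as circles, replicate 2 as squares and horizontal lines for the mean of 2 libraries. The SZC points lie above the DZC points for 7 genes and overlap them for *FGFR1*, *FGFR3* and *DUSP6*, and the 0 counts of *SPRY4* in DZC replicate 1 are drawn as an open triangle at 0.187 CPM.

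Of the receptors, *FGFR2* separated the zones while *FGFR1* and *FGFR3* did not. *FGFR2* (ENSBTAG00000014064), a receptor with a role in skeletal growth, was at 330 and 286 CPM in SZCs and at 159 and 86.1 CPM in DZCs. Both SZC libraries lay above both DZC libraries, and the lower SZC level was 1.80 times the higher DZC level. The log2 fold change was 1.33 (SE 0.43), a 2.51-fold difference with a 95% interval from 1.39-fold to 4.54-fold, and the FDR of 0.0788 in edgeR's exact test missed the threshold. *FGFR2* passed under 4 of the 12 alternatives, namely DESeq2 (FDR 0.045), scaling by library totals (FDR 0.000906), which raised the median log2 fold change of all genes by 0.30, and without either DZC replicate 1 (1.84, FDR 2.42e-05) or DZC replicate 2 (0.97, FDR 0.0176). The other 8 did not pass, among them the quasi-likelihood test (FDR 0.389), no filter on low counts (0.103), and without SZC replicate 1 (1.22, FDR 1) or SZC replicate 2 (1.43, FDR 0.606); a lone library was assumed to vary as the other zone does.

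*FGFR1* (ENSBTAG00000015457), a broadly expressed receptor, was at 761 and 544 CPM in SZCs and at 418 and 654 CPM in DZCs, so the zones overlapped. Its log2 fold change was 0.28 (SE 0.43). The 95% interval reached from 0.678-fold to 2.18-fold, so differences within that range remain possible. *FGFR3* (ENSBTAG00000007164) was at 439 and 601 CPM in SZCs, between its DZC levels of 809 CPM in replicate 1 and 281 CPM in replicate 2. The DZC libraries differed by 2.88-fold, a ratio exceeded by 12.9% of all tested genes, for which the median ratio between the DZC libraries was 1.48. The SZC mean was 520 ± 114 CPM (SD, n = 2) and the DZC mean 545 ± 373 CPM (SD, n = 2). The log2 fold change of *FGFR3* was -0.07 (SE 0.58). That value has no stable direction, since it was 0.89 without DZC replicate 1 and -0.62 without DZC replicate 2.

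The mix of receptor reads within a library does not depend on how libraries are scaled, and the unequal lengths of the transcripts cancel when the same ratio is compared between zones. The summed level of *FGFR1*, *FGFR2* and *FGFR3* was 1530 and 1431 CPM in SZCs and 1386 and 1021 CPM in DZCs. *FGFR2* made up 21.6% of these receptor counts in SZC replicate 1 (95% exact binomial interval 21.2% to 22.0%) and 20.0% in SZC replicate 2 (19.6% to 20.4%). In DZCs its share was 11.5% in replicate 1 (11.1% to 11.9%) and 8.43% in replicate 2 (8.07% to 8.80%). The *FGFR2* share thus separated the zones; the intervals cover counting error only. The share of *FGFR3* ran from 27.5% to 58.4% and that of *FGFR1* from 30.1% to 64.1%, and for both of these genes the highest and the lowest share belonged to the DZC libraries.

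As log2 ratios of counts with 2 added, *FGFR2* to *FGFR3* was -0.74 ± 0.47 (SD, n = 2) in SZCs and -2.02 ± 0.45 (SD, n = 2) in DZCs. The difference of 1.28 corresponds to a 2.44-fold higher ratio in SZCs. The ratio of *FGFR2* to *FGFR1* differed by 1.09 in the same direction, with -1.06 ± 0.19 (SD, n = 2) in SZCs and -2.16 ± 1.08 (SD, n = 2) in DZCs, and rested on DZC replicate 2, since it was 0.33 without that library and 1.86 without DZC replicate 1. The libraries of the zones did not overlap in either ratio. Exact permutation of the libraries (two-sided) returned p = 0.333 in each case, which is the smallest value open to 2 against 2. The ratio of *FGFR1* to *FGFR3* overlapped between zones (exact permutation p = 1), with the lowest value, -0.95, in DZC replicate 1 and the highest, 1.22, in DZC replicate 2. These 3 ratios share genes and are not independent.

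**Figure D2:**
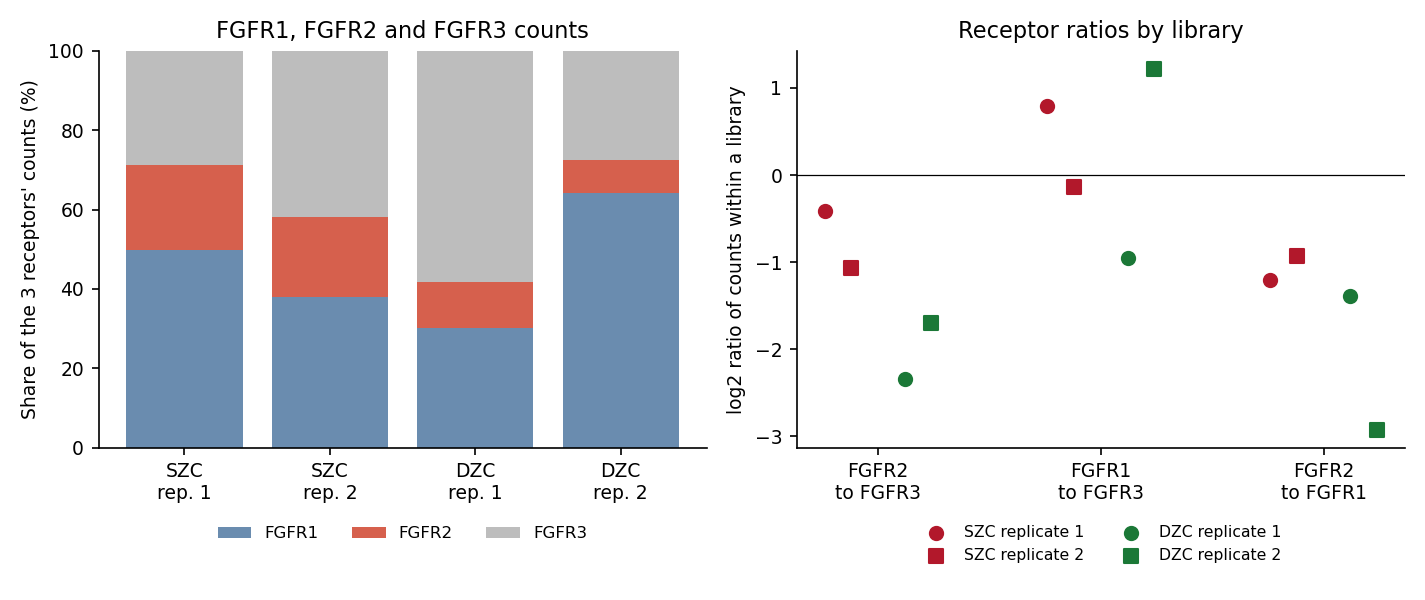
Left, the share in percent of the summed *FGFR1*, *FGFR2* and *FGFR3* counts that falls to each gene, per library; right, the log2 ratio of counts for each receptor pair, with SZCs in red, DZCs in green, circles for replicate 1 and squares for replicate 2. The *FGFR2* share is 20.0% and 21.6% in SZCs against 8.43% and 11.5% in DZCs, whereas *FGFR1* to *FGFR3* spreads most between the 2 DZC libraries.

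*ETV5* (ENSBTAG00000014915), an ETS-family activator induced by FGF signalling, had 2063 and 632 counts in SZCs against 195 and 356 counts in DZCs. Its level was 93.7 and 27.2 CPM in SZCs and 12.1 and 15.96 CPM in DZCs, so the lower SZC library was 1.71 times the higher DZC library. This difference was 4.30-fold, with a 95% interval from 1.86-fold to 9.96-fold (log2 value 2.11, SE 0.62; exact test in edgeR, FDR 0.0417). SZC replicate 1 carried much of this difference. The SZC libraries differed by 3.44-fold, a ratio exceeded by only 2.37% of all tested genes, for which the median ratio between the SZC libraries was 1.19. Without SZC replicate 1 the log2 fold change of *ETV5* was 0.95 and the FDR was 1, and without DZC replicate 1 they were 1.92 and 0.0583. *ETV5* passed under 7 of the 12 alternatives. The call was also lost with scaling by library totals (log2 fold change 2.36, FDR 0.0621) and in the quasi-likelihood test (2.10, FDR 0.377). With replicate number as a block, that test also did not call *ETV5* (1.855, FDR 0.0921).

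*ETV1* (ENSBTAG00000015981), a paralog of *ETV5*, was at 9.18 and 13.3 CPM in SZCs and at 0.933 and 4.80 CPM in DZCs. Both SZC libraries were above both DZC libraries, but the DZC libraries differed by 5.14-fold, with 15 counts in replicate 1 and 107 in replicate 2. The log2 fold change of 1.96 (SE 0.80) missed the threshold (edgeR exact test, FDR 0.309). It was 1.23 without DZC replicate 1 (FDR 0.112) and 3.61 without DZC replicate 2 (FDR 5.36e-08), so a single DZC library decides the size and the call. *ETV4* (ENSBTAG00000008333), the remaining member of this subfamily, was at 9.40 and 6.42 CPM in SZCs and at 4.42 and 5.78 CPM in DZCs. The zones were separated by a ratio of only 1.11 between the closest libraries, and the log2 value was 0.63 (SE 0.52; edgeR exact test, FDR 0.91), with a 95% interval from 0.763-fold to 3.14-fold. *ETV4* did not pass the threshold under any of the 12 alternatives tried.

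The 4 feedback inhibitors had between 0 and 476 counts per library. *SPRY1* (ENSBTAG00000021245) had the highest log2 fold change of the 10 genes, 2.65 (SE 0.82), which ranked 211 of 12857 tested genes, and rested on 44 and 70 counts in SZCs against 3 and 13 counts in DZCs. These correspond to 2.00 and 3.02 CPM in SZCs and 0.187 and 0.583 CPM in DZCs, so that the lower SZC library was 3.43 times the higher DZC library, the widest gap among the 10. Its FDR of 0.0556 in edgeR's exact test lay just above the threshold. It passed under 2 of the 12 alternatives, with genes limited to those over 1 CPM in at least 2 libraries (FDR 0.0457) and without DZC replicate 2 (log2 fold change 3.73, FDR 0.00192). It did not pass in DESeq2 (FDR 0.133), in the quasi-likelihood test (0.361), with library totals (0.143), or without SZC replicate 1 (0.686), SZC replicate 2 (0.987) or DZC replicate 1 (0.0932). *SPRY2* (ENSBTAG00000001774) was at 21.6 and 8.53 CPM in SZCs and at 6.84 and 6.72 CPM in DZCs. The DZC libraries were nearly alike, with a ratio of 1.02, while the SZC libraries differed by 2.54-fold. Its log2 fold change was 1.15 (SE 0.58; edgeR exact test, FDR 0.557) with all libraries and 0.33 without SZC replicate 1.

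*SPRY4* (ENSBTAG00000008250) had 89 and 39 counts in SZCs against 0 and 33 counts in DZCs. The 0 counts in DZC replicate 1, out of 21890549, allow a level of up to 0.187 CPM, and the other levels were 4.04 and 1.68 CPM in SZCs and 1.48 CPM in DZC replicate 2. SZC replicate 2 thus differed from DZC replicate 2 by a ratio of only 1.14. The log2 fold change of 1.93 had the largest standard error of the 10 genes, 1.40 (edgeR exact test, FDR 0.88). It was 0.95 without DZC replicate 1 and 1.16 without SZC replicate 1, and *SPRY4* passed only without DZC replicate 2 (FDR 3.79e-05), where the remaining DZC library had 0 counts and the fitted fold change is no bound. Against DZC replicate 1 alone, the mean of the SZC libraries was at least 15.3-fold higher, with the 0 counts set to 3. *DUSP6* (ENSBTAG00000004587) showed no separation, at 3.63 and 3.49 CPM in SZCs and at 1.99 and 4.39 CPM in DZCs. Its log2 fold change was 0.15 (SE 0.65), with a 95% interval from 0.460-fold to 2.68-fold, and it was -0.30 without DZC replicate 1 and 0.86 without DZC replicate 2.

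The spread between the SZC libraries was not the same for all of these genes. SZC replicate 1 was the higher library for *ETV5*, *SPRY2*, *SPRY4*, *ETV4*, *FGFR1* and *FGFR2*. Their levels there were 3.44, 2.54, 2.41, 1.47, 1.40 and 1.15 times those in SZC replicate 2. SZC replicate 2 was the higher library for *ETV1*, *SPRY1* and *FGFR3*, by 1.45, 1.51 and 1.37 times. The SZC libraries were nearly equal for *DUSP6*, with a ratio of 1.04. In DZCs, the widest ratio after that of *SPRY4*, where 1 library was at 0, was the 5.14 of *ETV1*.

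**Figure D3:**
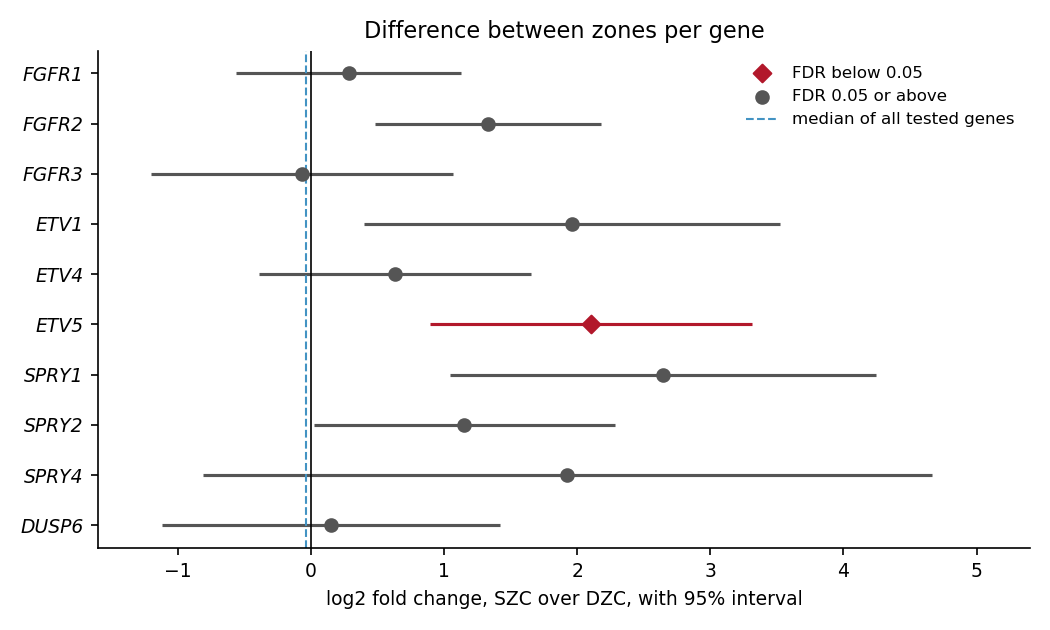
Log2 fold change of SZCs over DZCs per gene (points) with the 95% interval from the negative binomial model (lines), where *ETV5* alone is marked as passing an FDR of 0.05. The dashed line is the median of all tested genes, -0.04, and the interval of *SPRY4* is the widest.

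**Figure D4:**
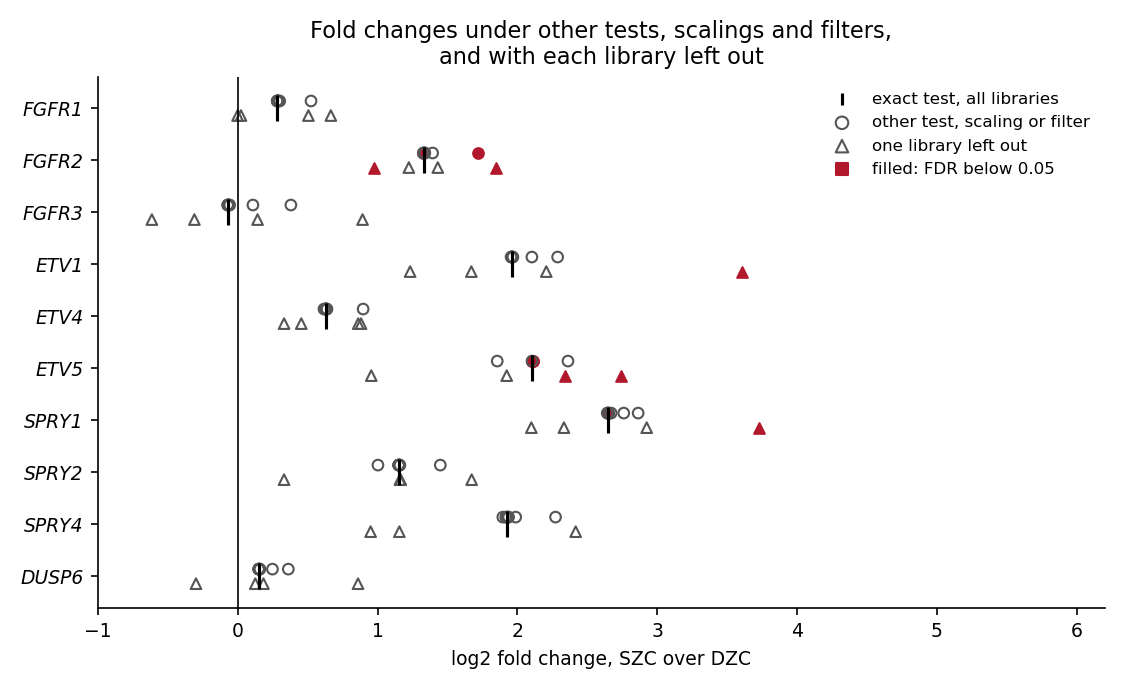
Log2 fold change of SZCs over DZCs for each gene with all libraries (bars), under 8 other tests, scalings, filters and dispersion settings (circles) and with each of 4 libraries left out (triangles), filled where the FDR was below 0.05. The value of *SPRY4* without DZC replicate 2 is not drawn, since the remaining DZC library had 0 counts.

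Other genes of the pathway were taken from lists written with earlier results of these data known. Their counts stand beside the same shares of all tested genes, 2.93% called in edgeR's exact test (2.23% toward SZCs and 0.700% toward DZCs), 3.09% in DESeq2, 0 genes in the quasi-likelihood test and 9.09% at an unadjusted p below 0.05. Of 18 secreted FGF ligands, 16 were matched by name, 2 had enough counts to be tested and 0 were called in edgeR's exact test (2.93% of all genes), the quasi-likelihood test or DESeq2, with 1 at an unadjusted p below 0.05. That gene was *FGF2*, a ligand stored in cartilage matrix, at 51.9 and 46.1 CPM in SZCs against 10.9 and 26.1 CPM in DZCs (log2 fold change 1.40, SE 0.49, FDR 0.134). *FGF18*, a ligand that promotes cartilage growth, overlapped between zones with 50 and 42 counts in SZCs and 9 and 48 in DZCs. *FGF9* was left out by the filter, with 7 and 18 counts in SZCs and 0 and 1 in DZCs, as was *FGF1*, with 3 and 0 counts in SZCs and 5 and 20 in DZCs, and 5 ligands had 0 counts in all 4 libraries. Of the intracellular FGF homologous factors, 2 were tested and 0 were called by any of the 3 tests, with 0 at an unadjusted p below 0.05 and *FGF13* at 10 and 114 counts in SZCs and 18 and 30 in DZCs. Of the remaining receptors, *FGFR4* was at 68.4 and 41.1 CPM in SZCs and at 114 and 15.9 CPM in DZCs, with DZC replicate 1 the highest library and DZC replicate 2 the lowest, as for *FGFR3*, and *FGFRL1*, which lacks a kinase domain, was at 197 and 174 CPM against 160 and 81.2 CPM. The co-receptor genes *KL* and *KLB* had at most 15 counts in any library.

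Of 20 adaptors and components of the RAS, RAF, MEK and ERK chain, all were tested and 0 were called by edgeR's exact test, against 2.93% of all genes, by its quasi-likelihood test or by DESeq2, with 3 at an unadjusted p below 0.05, against 9.09% of all genes. Their median log2 fold change was -0.02, close to that of all tested genes. *MAPK3*, the gene of ERK1, overlapped between zones, at 82.1 and 78.8 CPM in SZCs and 125 and 64.3 CPM in DZCs, as did *MAP2K2*, a MEK gene (log2 fold change -0.54). *SHC1*, an adaptor, was at 295 and 225 CPM in SZCs against 176 and 168 CPM in DZCs (log2 fold change 0.59, SE 0.36, FDR 0.748 by the exact test in edgeR).

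A list of 17 further inhibitors of RAS and ERK signalling included *SPRY3*, which had at most 2 counts in any library and was not tested. Of the 17, 15 were tested and 1 was called, higher in SZCs, against 2.23% of all genes. This was *LRIG1*, which encodes an inhibitor of receptor tyrosine kinases and was at 36.6 and 26.7 CPM in SZCs and at 9.64 and 11.7 CPM in DZCs (log2 fold change 1.56, SE 0.39, FDR 0.00587 by edgeR's exact test). *SPRED1*, which acts on RAS, overlapped between zones, with a log2 fold change near 0 (SE 0.40). *DUSP7*, another ERK phosphatase gene, was at 64.0 and 33.2 CPM in SZCs and at 22.0 and 19.5 CPM in DZCs, with an FDR of 0.138. *ERRFI1*, an inhibitor of EGFR, was at 345 and 170 CPM in SZCs and at 66.9 and 132 CPM in DZCs (FDR 0.222). For *DUSP7*, *ERRFI1* and *LRIG1*, SZC replicate 1 was the highest of the 4 libraries. The same held for *FGFR1*, *FGFR2*, *ETV4*, *ETV5*, *SPRY2* and *SPRY4*, among others, and the share of all tested genes with that order was not computed. Among 3 tested phosphatase genes that act mainly on stress kinases, *DUSP1* was called, at 83.4 and 87.1 CPM in SZCs against 20.6 and 37.6 CPM in DZCs (log2 fold change 1.55, SE 0.41, FDR 0.0133). The quasi-likelihood test called neither *LRIG1* (FDR 0.217) nor *DUSP1* (FDR 0.273), and *DUSP1* also missed the threshold with scaling by library totals (FDR 0.0789). Without SZC replicate 1 their FDR values were 1 and 0.541, and without SZC replicate 2 they were 0.276 and 0.450, with log2 fold changes between 1.32 and 1.77.

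Of 22 other ETS-family factors, 17 were tested and 1 was called, higher in SZCs, against 2.23% of all genes. *ERG*, a factor known from developing articular cartilage, was at 90.9 and 67.7 CPM in SZCs and at 27.5 and 20.5 CPM in DZCs, a 3.31-fold difference (log2 fold change 1.73, SE 0.37, FDR 0.000769 by edgeR's exact test). It passed under 9 of the 12 alternatives, with FDR values from 2.28e-06 to 0.615, and lost the call without SZC replicate 1 (0.615), without SZC replicate 2 (0.0881) and in the quasi-likelihood test (0.192). *ERF*, an ETS repressor that ERK controls, stood at 0.49 on the log2 fold change scale (FDR 0.923), and *ETS1* at -0.20 (FDR 1). *FLI1*, the closest relative of *ERG*, was at 24.2 and 22.3 CPM in SZCs and at 13.1 and 11.5 CPM in DZCs (FDR 0.266), and *ETS2* was at 41.2 and 30.4 CPM against 19.4 and 18.4 CPM (FDR 0.232).

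Genes that act on heparan sulfate, with which FGFs bind their receptors, included 14 tested members, of which 1 was called in each direction, against 2.23% of all genes toward SZCs and 0.700% toward DZCs. *SULF2*, which encodes a sulfatase that trims heparan sulfate outside the cell, was at 699 and 608 CPM in SZCs and at 109 and 162 CPM in DZCs (log2 fold change 2.27, SE 0.40, edgeR exact test FDR 1.01e-05), which is 4.84-fold. *GPC1*, a heparan sulfate proteoglycan of the cell surface, was higher in DZCs, at 483 and 342 CPM against 99.1 and 140 CPM in SZCs (log2 fold change -1.79, SE 0.40, FDR 0.00176). Both missed the threshold without SZC replicate 1 (FDR 0.102 for *SULF2* and 1 for *GPC1*) and in the quasi-likelihood test (0.162 and 0.233), and *GPC1* also without SZC replicate 2 (0.266). *HSPG2*, the gene of perlecan, was at 2111 and 1840 CPM in SZCs and 2331 and 2492 CPM in DZCs, and *GPC4* had a log2 fold change of -1.46 (FDR 0.195). *SULF1*, the paralog of *SULF2*, overlapped between zones, with 44.2 and 57.2 CPM in SZCs and 13.8 and 57.0 CPM in DZCs.

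The receptors and ligands of the EGF family, which signal through the same kinases, were called for 0 of 6 tested genes in edgeR's exact test (2.93% of all genes), the quasi-likelihood test and DESeq2, with 1 at an unadjusted p below 0.05 (9.09% of all genes). *EGFR* was at 55.5 and 54.4 CPM in SZCs and at 58.3 and 106 CPM in DZCs, both DZC libraries lying above both SZC libraries (log2 fold change -0.58, SE 0.41, FDR 0.837). For 3 of the 6, the ligand genes *BTC*, *HBEGF* and *TGFA*, both SZC libraries lay above both DZC libraries, against 21.0% of all tested genes. *BTC* was at 34.9 and 22.3 CPM against 16.6 and 10.4 CPM (FDR 0.286) and *HBEGF* at 3.41 and 2.84 CPM against 1.31 and 1.39 CPM (FDR 0.573). *TGFA*, the gene of the EGFR ligand used by the study, had 11 and 19 counts in SZCs and 1 and 7 in DZCs (log2 fold change 1.71, SE 0.97, FDR 0.71). *AREG* was left out by the filter, with 32 and 4 counts in SZCs and 0 and 0 in DZCs.

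**Figure D5:**
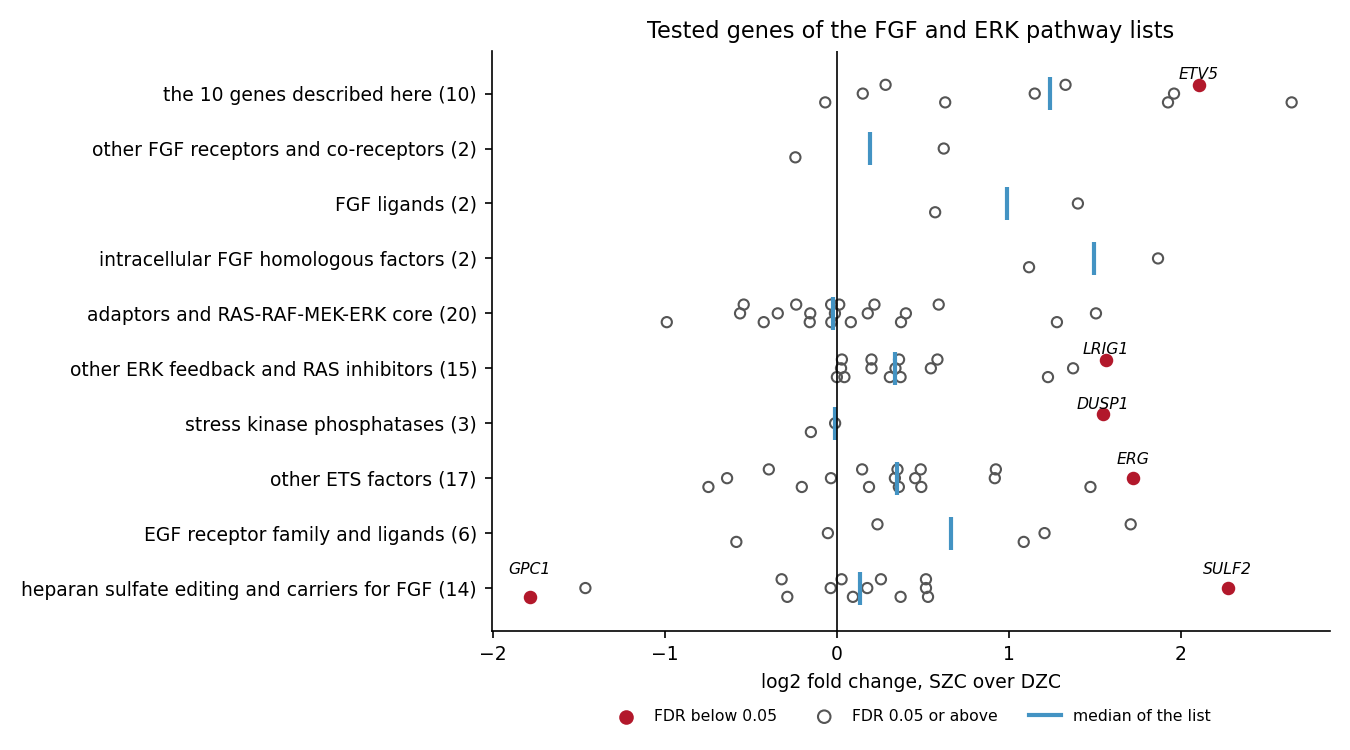
Log2 fold change of SZCs over DZCs for every tested gene of the pathway lists, 1 row per list with the number of tested genes in brackets, filled where the FDR was below 0.05 and with the list median as a blue bar. The called genes are *ETV5*, *LRIG1*, *DUSP1*, *ERG* and *SULF2* on the side of SZCs and *GPC1* on the side of DZCs, and the median of the kinase chain lies at -0.02.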

How the data were processed

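RNA-Seq libraries were prepared with a kit for very small RNA amounts and read as 75-bp single ends. The authors aligned reads with STAR 2.5.2b to Ensembl build UMD 3.1 (release 88), ignored strand in counting, and deposited raw counts. Overlapping genes on opposite strands therefore cannot be separated, and SPRY, ETV and FGFR paralogs may share some reads. The deposited table of the authors' own comparison holds log2 fold changes and FDR values, which were not used; only its gene symbols were read, to fill 8 blank names. ATAC-Seq was not analysed here, and no sequences or coordinates are given because a genome of that build was not used here.

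The counts were tested in edgeR 4.0.16 (R 4.3.3) after TMM scaling, with the default filter (12857 of 24596 genes) and default dispersion (square root of the common value 0.361), using the exact test that the study's methods name, at an FDR of 0.05. Standard errors and 95% intervals follow from the negative binomial model and rest on a dispersion estimated from 2 libraries per zone. Alternatives were the quasi-likelihood test with and without a replicate block, DESeq2 1.42.0, other scalings, filters and dispersions, and leaving out each library. Scripts were tested on simulated data. The members and lists were chosen with earlier results of these data known. Named genes were all 10 members and, from each list, called genes and up to 4 further abundant genes. *DUSP7*, *SPRY3*, *FLI1*, *ETS2*, *SULF1*, *AREG*, *TGFA*, *SOX9*, *IBSP*, *COL10A1*, *SP7*, *BGLAP* and *DMP1* fall outside that rule and were named after their values were seen. Some genes of the lists are not reported here by name.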

Additional observations from a re-analysis of the deposited data

How the results depend on the processing

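The fold changes of *FGFR2*, *ETV1*, *ETV4*, *ETV5*, *SPRY1*, *SPRY2* and *SPRY4* were positive under all 12 alternatives, and *ETV4* and *SPRY2* passed under none of them, while the calls of the other 5 changed with the setting. The quasi-likelihood test of edgeR without a block called 0 genes, 0 in each direction, 0 of the 10 genes and 0 of the pathway lists, with 1126 genes and 4 of the 10 at an unadjusted p below 0.05. The zones were cut from the same cores of a knee and share replicate numbers, but no source used here says that a number marks a knee. Deviations of same-numbered libraries had a correlation of 0.42 across genes. With the replicate block, that test called 347 genes and 0 of the 10. An unadjusted p below 0.05 was then seen for 5 of the 10, against 12.8% of all tested genes. Its FDR values were 0.0581 for *ETV1*, 0.0688 for *SPRY1*, 0.0766 for *FGFR2* and 0.0921 for *ETV5*. *FGFR3* then had a log2 fold change of 0.11. DESeq2 called 2 of the 10 (*ETV5* and *FGFR2*), as did the filter of over 1 CPM in at least 2 libraries (*ETV5* and *SPRY1*).

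Scaling by library totals called *FGFR2* in place of *ETV5*, gave *FGFR3* a log2 fold change of 0.38, called 44 genes higher in DZCs against 90, and raised the share of calls higher in SZCs from 76.1% to 86.7%. It moved the median log2 fold change of all genes by 0.30, to 0.26. Over the libraries left out in turn, calls ranged from 68 to 2768 genes (62 to 1656 higher in SZCs and 6 to 1112 higher in DZCs), 0 to 5 of the 10 and 0 to 24 of the pathway lists. The lowest counts came without SZC replicate 1 and the highest without DZC replicate 2. The log2 fold change then ranged from -0.0021 to 0.67 for *FGFR1*, -0.62 to 0.89 for *FGFR3* and -0.30 to 0.86 for *DUSP6*, and the difference in *FGFR1* to *FGFR3* ratio from -0.90 to 1.28. Those in *FGFR2* to *FGFR3* and *FGFR2* to *FGFR1* stayed positive, at 0.95 to 1.61 and 0.33 to 1.86. The cause of these changes was not tested. At these depths *SPRY1*, *SPRY4* and *DUSP6*, with at most 98 counts in a library, are limited by counting as well as by replicate spread.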
